A study of Mus musculus with 30 samples.

Results

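The mouse mitochondrial genome supplied 37 rows of the expression table, and the 35 described here are its 13 mRNA genes and 22 tRNA genes. They were taken by name, as all rows beginning with mt- apart from the rRNA genes mt-Rnr1 and mt-Rnr2, out of 50600 genes in the table. RNA came from 30 ovaries, a left and a right one from each of 15 C57BL/6 females, with a library for each. In 7 mice, the DSS group, the drinking water had held 3% dextran sulfate sodium, a polymer that injures the colon lining, for 7 days before puberty. The other group consisted of 8 untreated littermates. Both groups were sexually mature when the ovaries were taken. Each mouse was a replicate, and each library held the RNA of a whole ovary, in which fewer cells of a type and less RNA per cell cannot be told apart. Libraries were made by CEL-Seq, which primes on A tails and sequences the 3′ ends of transcripts. Values are normalized counts, that is, reads divided by a size factor for each library, and ± gives the SD over mice, or over ovaries where sides are compared. Single mice are named by group and label number, as in DSS_15.1.

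Mitochondrial mRNAs encode subunits of the respiratory chain: mt-Nd1 to mt-Nd6 and mt-Nd4l belong to complex I, mt-Cytb to complex III, mt-Co1 to mt-Co3 to complex IV, and mt-Atp6 and mt-Atp8 to the ATP synthase. Both strands of the circle are transcribed into long precursors, and most mRNAs are freed when the tRNAs between them are cut out. The mRNAs then receive short A tails, which for some of them complete the stop codon, whereas the mature tRNAs receive the bases CCA and carry no A tail. In human cells the mRNA of ND6, which lies on the other strand, is known to lack an A tail. In the ovary, oocytes hold very many mitochondria, and steroid-making cells begin hormone synthesis inside them.

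The sequences below, from the GENCODE M21 transcripts of build GRCm38, show the genes as encoded, without any added A tail. The 5 tRNAs with the highest levels are given first, then mt-Tr, which holds the longest run of A among the tRNAs. Capitals mark runs of at least 3 A.
mt-Ti: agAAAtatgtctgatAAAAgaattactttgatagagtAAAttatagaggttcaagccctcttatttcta
mt-Tm: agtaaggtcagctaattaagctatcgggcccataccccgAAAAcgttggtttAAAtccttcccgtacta
mt-Tt: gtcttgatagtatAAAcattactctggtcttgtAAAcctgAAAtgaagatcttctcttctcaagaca
mt-Te: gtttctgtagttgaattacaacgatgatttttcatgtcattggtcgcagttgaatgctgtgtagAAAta
mt-Tg: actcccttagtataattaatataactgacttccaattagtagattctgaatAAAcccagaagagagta
mt-Tr: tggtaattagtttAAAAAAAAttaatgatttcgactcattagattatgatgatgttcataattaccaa
These genes lie at chrM:3706-3774 (mt-Ti, for isoleucine), chrM:3845-3913 (mt-Tm, for methionine), chrM:15289-15355 (mt-Tt, for threonine), chrM:14071-14139 (mt-Te, for glutamate, on the minus strand), chrM:9391-9458 (mt-Tg, for glycine) and chrM:9808-9875 (mt-Tr, for arginine). The last 60 bases of 5 mRNA genes follow, with capitals on the bases of the stop codon that the gene itself holds.
mt-Atp6: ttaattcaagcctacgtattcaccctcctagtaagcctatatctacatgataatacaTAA
mt-Nd1: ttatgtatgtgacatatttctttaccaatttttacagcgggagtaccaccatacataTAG
mt-Co3: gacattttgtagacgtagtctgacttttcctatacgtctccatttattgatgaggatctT
mt-Nd4: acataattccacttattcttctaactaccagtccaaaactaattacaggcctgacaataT
mt-Cytb: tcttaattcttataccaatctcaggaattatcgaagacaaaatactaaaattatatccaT
The genes mt-Co3, mt-Nd4 and mt-Cytb end on a lone T, which an A tail turns into a stop codon. They end at chrM:9331-9390, chrM:11485-11544 and chrM:15229-15288, and mt-Atp6 and mt-Nd1 end at chrM:8548-8607 and chrM:3648-3707, all on the plus strand.

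The libraries held 3095386 to 8564770 reads (median 4305814), with a median of 3953387 in left and 4588719 in right ovaries. Granulosa, oocyte, and theca and luteal marker lists were detected in every library, with the theca and luteal list (Cyp11a1, Star and others) summing to between 46603 and 191585 normalized counts per library. In 7 ovaries of 6 mice, 3 of them DSS mice, the oviduct gene Ovgp1 was above 5000 normalized counts. No marker gene of another cell type passed the threshold for DSS against control, although 5 of 5 oviduct genes (median log2 difference 1.15) and 4 of 4 adipocyte genes tested (1.10) were at higher and 5 of 5 keratinocyte genes (-1.86) at lower levels in DSS mice. Also lower in DSS mice were 6 of 7 oocyte genes (-0.14) and 5 of 6 granulosa genes (-0.15). The 4 of 6 theca and luteal genes (0.13) and 4 of 4 erythroid genes (0.25) that were higher did not pass, nor did any of the others. Their part in the values of mitochondrial genes was not tested. In the sample names, each left ovary carries an odd number and the right ovary of that mouse the next even number. The names do not say what these numbers mean, and odd against even cannot be told apart from side. A further 4 libraries stood apart for mt-Nd6 and mt-Te, as described with those genes.

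All 13 mRNAs were detected in all 30 libraries and took up 16.2% ± 0.598 of all counts in the 7 DSS mice and 16.5% ± 0.686 in the 8 control mice. Since the method sequences 3′ ends, counts need not grow with gene length. Values per kilobase, here and below, may therefore overstate short genes against long ones. By normalized counts mt-Nd4 ranked 2, mt-Nd2 3 and mt-Nd3 8, and per kilobase they ranked 3, 2 and 5. Per kilobase of gene, mt-Atp6 was the highest at 486881 normalized counts, and it was above the next mRNA in all 30 libraries. Its normalized counts, 331566 ± 24775 over 15 mice, were 46.3% of the mRNA sum and ranked 1 among all 50600 genes. The complex I mRNAs mt-Nd2, mt-Nd4 and mt-Nd1 came next, at 112305, 85946 and 83733 normalized counts per kilobase. Of these neighbours, mt-Nd4 was above mt-Nd1 per kilobase in 15 of 30 libraries, so their order per kilobase was not settled. By normalized counts the lowest library of mt-Nd4 (97817) was above the highest of mt-Nd1 (92889). These 4 mRNAs together made up 90.3% of the mRNA sum.

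Across the libraries, mt-Atp6 ranged between 268288 and 382393 normalized counts with a median of 334404. For mt-Nd4 the lowest, median and highest libraries were at 97817, 117398 and 152234 normalized counts. For mt-Nd2 they were at 88370, 112578 and 159466 normalized counts. For mt-Nd1 they were at 64801, 79068 and 92889 normalized counts. Among these 4 mRNAs mt-Nd2 varied most over libraries, by 1.80-fold, and mt-Atp6 and mt-Nd1 least, by 1.43-fold each.

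Lower levels per kilobase were found for mt-Nd3 (27449), mt-Cytb (17111), mt-Co2 (15539), mt-Co3 (14870), mt-Co1 (5404), mt-Nd5 (4567), mt-Atp8 (3128) and mt-Nd4l (2419). Adjacent members of this order that overlapped in range were mt-Cytb and mt-Co2, mt-Co2 and mt-Co3, mt-Co1 and mt-Nd5, mt-Nd5 and mt-Atp8, and mt-Atp8 and mt-Nd4l. mt-Co2 was above mt-Co3 per kilobase in 17 of 30 libraries only. The lowest mRNA was mt-Nd6, at 180 normalized counts per kilobase, which was below every other mRNA in all 30 libraries. It ranged between 22.4 and 310 normalized counts with a median of 66.6, a 13.8-fold range, the widest of any mRNA. mt-Atp8, the second lowest by normalized counts, ranged between 418 and 907 with a median of 607. Its gene shares 43 bases with that of mt-Atp6 and the mt-Nd4l gene shares 7 with mt-Nd4, so reads in the shared bases may have been counted for either gene or for neither. Each pair also shares a transcript, whose 3′ end lies in mt-Atp6 or mt-Nd4. As the method sequences 3′ ends, the low counts of mt-Atp8 and mt-Nd4l need not measure the level of that transcript. Over mice, the coefficient of variation lay between 6.49% for mt-Nd1 and 47.4% for mt-Nd6.

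**Figure D1:**
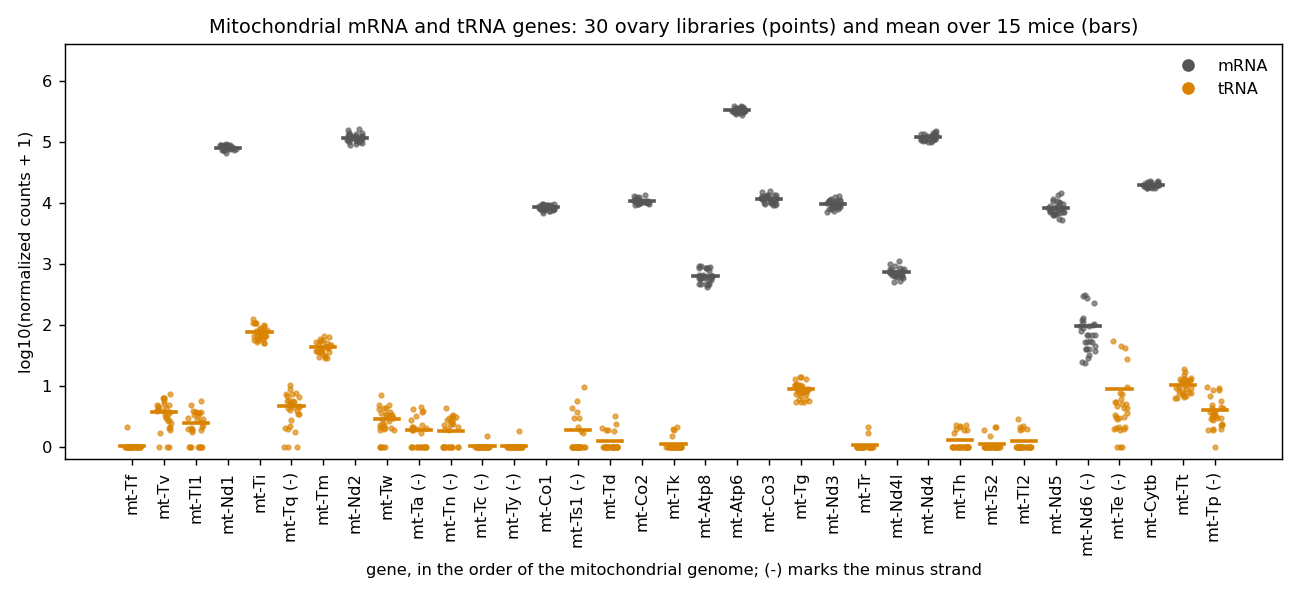
Normalized counts of the 35 mitochondrial genes on the scale log10(value + 1), in genome order, with a point for each of 30 libraries and a bar for the mean over 15 mice. The 13 mRNAs lie between mt-Nd6 (mean 93.4) and mt-Atp6 (mean 331566), and every tRNA mean is at or below that of mt-Ti (75.4).

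The tRNAs were sparse: 4920 reads over all libraries fell on the 22 genes, between 103 and 402 per library, against 22091111 on the mRNAs. mt-Ti and mt-Tm held most of them, 47.5% and 26.3% of the tRNA sum. The lowest, median and highest libraries of mt-Ti were at 49.97, 70.8 and 121 normalized counts, and those of mt-Tm at 27.9, 40.2 and 64.9. Next were mt-Tt (5.21, 8.75 and 17.6), mt-Tg (4.34, 7.58 and 13.04) and mt-Te (0, 2.98 and 53.2 normalized counts). mt-Ti, mt-Tm, mt-Tt and mt-Tg were present in all 30 libraries and mt-Te in all but 3.

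None of the remaining 17 tRNAs reached the mean of 5 normalized counts required for testing. mt-Tq, for glutamine, averaged 3.63 normalized counts, mt-Tp, for proline, 3.03, and mt-Tv, for valine, 2.69. mt-Tw averaged 1.85 and mt-Tl1 1.48 normalized counts. The other 12, namely mt-Ta, mt-Ts1, mt-Tn, mt-Th, mt-Td, mt-Tl2, mt-Ts2, mt-Tk, mt-Tr, mt-Tf, mt-Ty and mt-Tc, averaged below 1. Among them mt-Tr, whose gene holds an unbroken run of 8 A, had 2 reads over all 30 libraries. mt-Tf, mt-Ty and mt-Tc had 1 read each. Whether any reads were primed at such runs was not tested. Without that minimum, none of these 17 passed in the comparisons below. mt-Tp averaged 4.01 ± 2.65 normalized counts in left ovaries and 2.05 ± 1.44 in right ovaries (n = 15 each). The tRNA genes are alike in length (59 to 75 bases). Per kilobase, mt-Ti was at 1092, mt-Tm at 604, mt-Tt at 140, mt-Tg and mt-Te both at 115, and mt-Tr at 0.877 normalized counts.

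Mitochondrial tRNAs gave 0.222 ± 0.0229 counts per 1000 mRNA counts over 15 mice. On the scale of counts per kilobase, with 1501 bases of tRNA genes and 11403 of mRNA genes, this was 1.68 per 1000. That scale may overstate the tRNAs, as their genes are short and the method sequences 3′ ends. A tRNA gene directly follows an mRNA gene on the same strand in 7 places, and these tRNAs differed widely in their counts relative to that mRNA. mt-Ti gave 0.942 ± 0.170 counts per 1000 counts of mt-Nd1, mt-Tg 0.671 ± 0.109 per 1000 of mt-Co3, and mt-Tt 0.480 ± 0.113 per 1000 of mt-Cytb (n = 15 mice each). The other 4 were far lower, with mt-Tw at 0.0157 ± 0.00720 counts per 1000 of mt-Nd2 and mt-Tk at 0.0110 ± 0.0230 per 1000 of mt-Co2. mt-Tr gave 0.00676 ± 0.0181 per 1000 of mt-Nd3 and mt-Th 0.00232 ± 0.00230 per 1000 of mt-Nd4. The ratios of mt-Tk, mt-Tr and mt-Th rest on 4, 2 and 8 reads over all libraries, so their order is uncertain. Per kilobase of both genes, mt-Ti reached 13.05 per 1000 of mt-Nd1 and mt-Th 0.0479 per 1000 of mt-Nd4. mt-Tg and mt-Tt adjoin their mRNA with no base between, whereas mt-Ti and mt-Tw overlap theirs by 2 bases, at ratios that differ widely between them. A lone T as the coded part of the stop codon precedes mt-Tg and mt-Tt at a high ratio and mt-Th at the lowest ratio.

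mt-Nd6, the only mRNA on the minus strand, and mt-Te, its direct neighbour on that strand, were high together in 4 libraries. mt-Nd6 was at 299 and mt-Te at 40.4 normalized counts in the right ovary of DSS_15.1. In the right ovary of DSS_16.3 they were at 227 and 44.0 normalized counts. In the left ovary of control_10.5 they were at 310 and 53.2, and in the left ovary of control_10.6 at 278 and 26.5 normalized counts. In the other 26 libraries mt-Nd6 lay between 22.4 and 127 and mt-Te between 0 and 8.69 normalized counts, with no overlap. The other ovary of each of these 4 mice was not raised, with mt-Nd6 at 22.4 to 67.0 normalized counts. Libraries above 200 normalized counts of mt-Nd6 were set apart after the values were seen, and no test was made. Of 14646 genes with a mean of at least 5, only mt-Nd6, which set the split, and mt-Te (0.0137% for both) were higher in all 4 libraries than in all other 26, and 1 gene, Mcee (0.00683%), was lower in all 4. The minus-strand tRNAs mt-Tq, mt-Ta, mt-Tn and mt-Tp together were at 5.51 to 17.0 normalized counts in the 4 libraries and at 0 to 16.29 in the other 26, which overlapped. That sum leaves out mt-Ts1, mt-Tc and mt-Ty. mt-Ts1 was highest in control_10.6 left (8.52) and DSS_15.1 right (4.59), at 0.7 in DSS_16.3 right and 0 in control_10.5 left. Its highest value in the other 26 was 3.36. mt-Tc and mt-Ty had 1 read each over all libraries. mt-Te reached the mean of 5 only through these 4 libraries, and mt-Nd6 shares 14 bases with mt-Nd5 on the opposite strand, whose reads may not have been told apart.

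**Figure D2:**
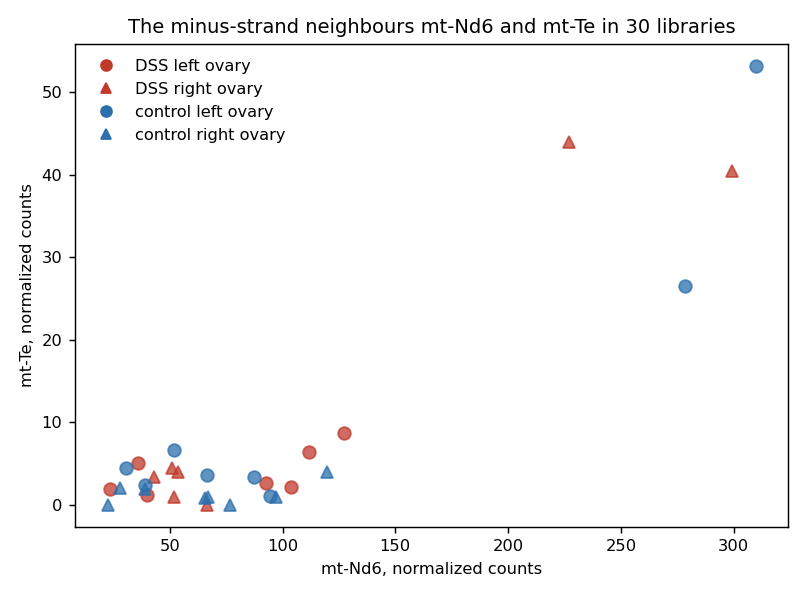
Normalized counts of mt-Nd6 against those of mt-Te in 30 libraries, coloured by treatment, with circles for left and triangles for right ovaries. The 4 libraries above 200 normalized counts of mt-Nd6 are also the 4 highest in mt-Te (26.5 to 53.2 normalized counts), a pair of DSS right ovaries and a pair of control left ovaries.

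Left and right ovaries were compared within the mouse. The complex IV mRNA mt-Co3 and the complex I mRNAs mt-Nd3 and mt-Nd4l were lower in left ovaries, and the isoleucine tRNA mt-Ti was higher in left ovaries. These 4 of the 18 members with a mean of at least 5 passed an adjusted p of 0.05 with limma, against 1488 of 14646 genes (10.2%). The share of all genes called was 4.56% for higher in left and 5.6% for higher in right, against 1 and 3 of 18 members. With edgeR and with DESeq2 the same number of members, 4, was called, as 1 higher and 3 lower in left ovaries. Among all 13 mRNAs, 3 had a higher and 10 a lower value in left ovaries, with a median log2 difference of -0.07, and among the 5 tRNAs tested 3 were higher and 2 lower. The sign of mt-Tt, -0.01, turned when libraries were scaled to nuclear genes.

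mt-Co3 (ENSMUSG00000064358.1, chrM:8607-9390) was at 9308, 10246 and 12263 normalized counts in the lowest, median and highest left ovary, against 10794, 12584 and 15446 in right ovaries. The sides overlapped, but it was lower in the left ovary of 14 of 15 mice. The log2 difference, left minus right, was -0.27 (SE 0.04; limma, adjusted p = 0.000196). For mt-Nd3 (ENSMUSG00000064360.1, chrM:9459-9806), left ovaries were at 7072, 8569 and 10466 normalized counts, against 7260, 10637 and 12752 in right ovaries. It was lower in the left ovary of 13 of 15 mice, with a log2 difference of -0.26 (SE 0.05; limma, adjusted p = 0.00167). mt-Nd4l (ENSMUSG00000065947.3, chrM:9877-10173) was at 505, 653 and 785 normalized counts in left ovaries, against 628, 741 and 1106 in right ovaries. In 13 of 15 mice it was lower on the left, with a log2 difference of -0.28 (SE 0.07; limma, adjusted p = 0.00828). These 3 genes follow each other on the plus strand, separated by mt-Tg and mt-Tr. All 3 were lower in the left ovary of 10 mice, with 2 of the 3 lower in the other 5. As the 3 were called in these same mice, those counts do not show that they moved together.

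The bicistronic partners and direct neighbours of these mRNAs did not pass the threshold. As mt-Nd4 holds the 3′ end of the transcript shared with mt-Nd4l, the side difference of mt-Nd4l need not be that of the transcript. mt-Nd4, which shares a transcript with mt-Nd4l, averaged 112801 ± 10286 normalized counts in left ovaries and 124067 ± 13429 in right ovaries (n = 15 each), a log2 difference of -0.13 (SE 0.06; limma, adjusted p = 0.143), and was lower on the left in 12 of 15 mice. mt-Atp6, which borders mt-Co3, differed by -0.04 on the log2 scale (SE 0.05, 95% interval -0.15 to 0.07). mt-Atp8, the partner of mt-Atp6, averaged 679 ± 122 normalized counts in left ovaries and 597 ± 165 in right ovaries, a log2 difference of 0.21 (SE 0.09; limma, adjusted p = 0.154). The remaining mRNAs lay between -0.16 for mt-Nd5 and 0.15 for mt-Nd6.

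mt-Ti (ENSMUSG00000064342.1) was at 58.4, 83.6 and 121 normalized counts in the lowest, median and highest left ovary, against 49.97, 63.3 and 104 in right ovaries. It was higher on the left in 7 of 7 DSS mice and in 6 of 8 control mice. The log2 difference was 0.40 (SE 0.10; limma, adjusted p = 0.0107). Its upstream neighbour mt-Nd1 differed by -0.02 (SE 0.05), and mt-Ti counts per 1000 mt-Nd1 counts were 1.08 ± 0.201 in left ovaries and 0.814 ± 0.245 in right ovaries, higher on the left in 11 of 15 mice. mt-Tm, the other abundant tRNA, differed by 0.09 (SE 0.12), with a 95% interval of -0.16 to 0.33. mt-Te had the third smallest p among members higher on the left, at 0.73 on the log2 scale (SE 0.58; limma, adjusted p = 0.489), and in DSS mice alone its sign turned.

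Keratinocyte markers moved with side: all 5 (Krt4, Krt5, Krt13, Krt14 and Sprr1a) were higher in left ovaries, and their sum lay between 122 and 6268 normalized counts in left ovaries, with a median of 515, against 36.7 to 863 in right ovaries, with a median of 121. No marker of this list was at 0 throughout. The muscle gene Tnnt3 was also higher, and the theca gene Cyp17a1 and the erythroid gene Hba-a1 lower, in left ovaries. By direction alone, 5 of 6 theca and luteal genes (median log2 difference -0.17), 4 of 4 erythroid genes (-0.49) and 5 of 5 oviduct genes (-0.42) were lower in left ovaries. There, 4 of 4 adipocyte genes tested (0.60) were higher. The granulosa and oocyte lists were split between directions. Without the 6 mice whose left ovary had more than 100 normalized counts of Krt5, a setting chosen after the values were seen, the log2 differences in the other 9 mice were -0.23 for mt-Co3, -0.24 for mt-Nd3, -0.26 for mt-Nd4l and 0.34 for mt-Ti, and none passed the threshold (adjusted p between 0.0651 and 0.161). In DSS mice alone 0 members passed, with log2 differences of -0.25 for mt-Co3, -0.26 for mt-Nd3, -0.25 for mt-Nd4l and 0.35 for mt-Ti (limma, adjusted p between 0.105 and 0.174). In control mice alone mt-Co3 passed (-0.30; limma, adjusted p = 0.00875), with -0.26 for mt-Nd3, -0.31 for mt-Nd4l and 0.45 for mt-Ti (adjusted p between 0.0504 and 0.111). In 9 mice without an ovary above 5000 Ovgp1, mt-Co3 and mt-Nd3 passed and mt-Nd4l (-0.23, adjusted p = 0.129) and mt-Ti (0.38, adjusted p = 0.0775) did not. Without the 4 mice that hold the libraries high in mt-Nd6, mt-Ti was at 0.39 (adjusted p = 0.0769).

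**Figure D3:**
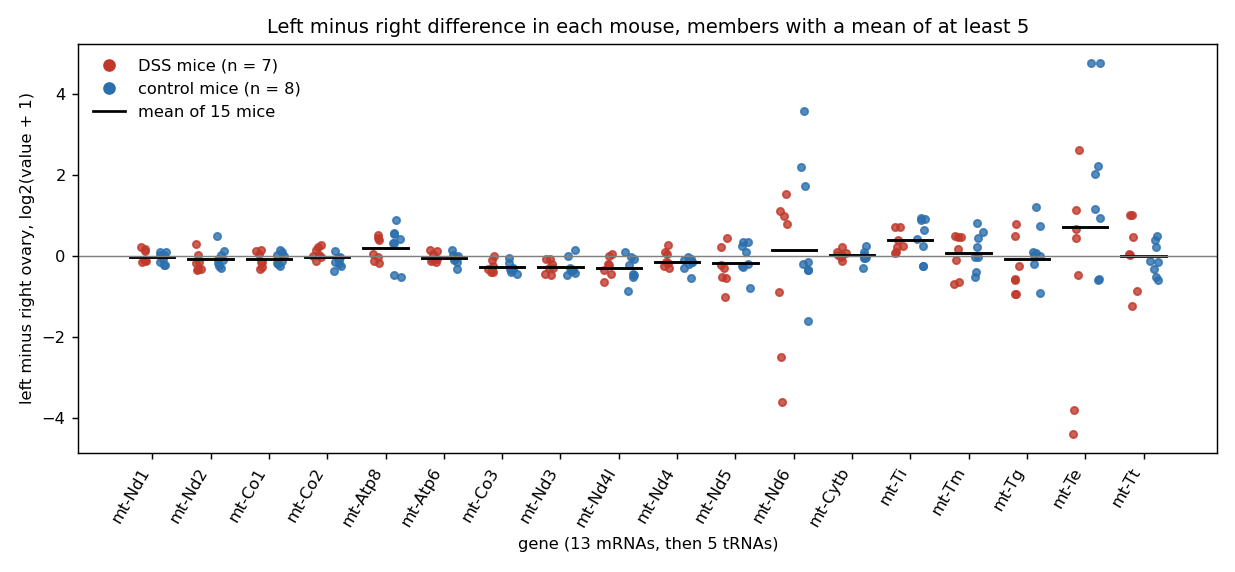
Left minus right difference of log2(value + 1) in each mouse for the 18 members with a mean of at least 5, with DSS mice in red, control mice in blue and a bar for the mean of 15 mice. mt-Co3, mt-Nd3 and mt-Nd4l lie below 0 in 14, 13 and 13 mice, mt-Ti lies above 0 in 13, and mt-Nd6 and mt-Te spread most widely.

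The tRNA counts per 1000 mRNA counts were 0.249 ± 0.0416 in left ovaries and 0.195 ± 0.0352 in right ovaries (n = 15 each). They were higher on the left in 6 of 7 DSS mice and in 7 of 8 control mice. In DSS mice the ratio was 0.237 ± 0.0320 in left and 0.215 ± 0.0275 in right ovaries, and in control mice it was 0.259 ± 0.0480 in left and 0.179 ± 0.0337 in right ovaries. This sum over members was given no test. Without mt-Ti the ratio was 0.126 ± 0.0304 in left and 0.107 ± 0.0217 in right ovaries. In DSS mice it was then 0.116 ± 0.0144 in left and 0.123 ± 0.0191 in right ovaries, higher on the left in 3 of 7. In control mice it was 0.135 ± 0.0382 in left and 0.0924 ± 0.0118 in right ovaries, higher on the left in 8 of 8. Both ratios still hold mt-Te, and the 4 libraries high in it are DSS right and control left ovaries. mt-Te was at 26.5 to 53.2 normalized counts in those libraries, against 0 to 8.69 in the other 26. The part of these libraries in the opposite directions of DSS and control mice without mt-Ti was not tested. No ratio without both mt-Ti and mt-Te was taken. The mRNA share of all counts was 16.2% ± 0.894 in left and 16.6% ± 0.720 in right ovaries, lower on the left in 11 of 15 mice.

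**Figure D4:**
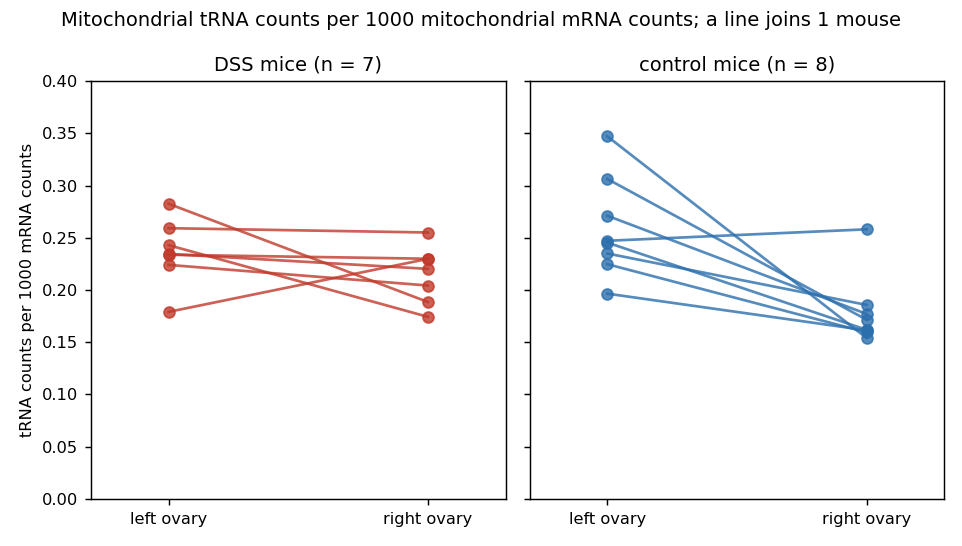
Counts of the 22 mitochondrial tRNAs per 1000 counts of the 13 mitochondrial mRNAs in left and right ovaries, with a line for each of 7 DSS mice and 8 control mice. The line descends towards the right ovary in 6 DSS mice and 7 control mice, and left and right values overlap in both groups.

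Near-identical nuclear copies exist for 7 of the mRNA genes, within chr1:24611535-24616197 of GRCm38, and they make the levels of these genes uncertain, since the handling of reads that map to several places is not given in the sources used here. mt-Atp6 matched the pseudogene Gm10925 at 100% over 678 bases, mt-Co3 matched Gm28437 at 100% over 783, and mt-Nd4l matched Gm10222 at 100% over 294. mt-Co2, mt-Nd4, mt-Co1 and mt-Nd3 also had such a copy, and mt-Co1 had a second, Gm13340 on chromosome 2, at 97.6%. The copy of mt-Nd4 covers its first 876 of 1378 bases and not the 3′ end that the method sequences. In the deposited counts Gm13340 averaged 81.6 and Gm29216, the other copy of mt-Co1, 13.7 normalized counts, against 8349 for mt-Co1. Gm10925 averaged 14.6 normalized counts against 331566 for mt-Atp6, and Gm28437, Gm28438 and Gm10222 averaged 1.29, 0.299 and 0.0317. mt-Nd3 and its copy Gm28438 differ at 1 base, T3C counted from the first base of mt-Nd3, shown in capitals in these stretches at chrM:9459-9505 (plus strand) and chr1:24613073-24613119 (minus strand).
mt-Nd3: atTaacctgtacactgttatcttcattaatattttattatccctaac
Gm28438: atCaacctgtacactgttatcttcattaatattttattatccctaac
All 3 mRNAs that were lower in left ovaries have such a copy, as have mt-Atp6, mt-Co1, mt-Co2 and mt-Nd4, which did not pass, and the part of the copies in the side difference was not tested.

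The main question of the study was whether DSS before puberty left a difference in the adult ovary. For DSS against control, 0 of 18 members passed an adjusted p of 0.05 with limma, as did 0 of 14646 genes (0%), and edgeR and DESeq2 called 0 members, with 6 and 52 genes. At an unadjusted p under 0.05, 1 of 18 members remained, against 1169 genes (7.98%). Of the 13 mRNAs, 5 had a higher and 8 a lower value in DSS mice, with log2 differences between -0.11 and 0.31 and a median of -0.03, and of the 5 tRNAs 3 were higher and 2 lower. Over all 18 the median was -0.03, and over all genes it was 0.00.

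mt-Nd5, a complex I subunit, was the member at an unadjusted p under 0.05. Its mouse means were 7703, 9117 and 10088 normalized counts in the lowest, median and highest DSS mouse, against 5741, 6965 and 11252 in control mice. All 7 DSS mice were above the control median, but control_10.6 was above every DSS mouse, so the groups overlapped. The log2 difference was 0.31 (SE 0.11, 95% interval 0.07 to 0.55; limma, adjusted p = 0.508). It was 0.17 (adjusted p = 0.933) without the 4 libraries high in mt-Nd6 and 0.20 (adjusted p = 0.564) in left ovaries alone, both with limma. The former setting kept only the left ovary of DSS_15.1 and DSS_16.3 and only the right ovary of control_10.5 and control_10.6. Side and treatment cannot be told apart in that change. mt-Nd2 averaged 120683 ± 17852 normalized counts in DSS mice and 112976 ± 9144 in controls (log2 0.09, SE 0.09; limma, adjusted p = 0.833), and its log2 difference lay between 0.04 (without DSS_10.3) and 0.13 (without DSS_11.2) with each mouse left out. mt-Te averaged 8.94 ± 8.98 and 7.01 ± 8.95 normalized counts in DSS and control mice (log2 0.38, SE 0.57; limma, adjusted p = 0.889), and its log2 difference was -0.75 in left and 1.63 in right ovaries alone. With each mouse left out it lay between 0.09 (without DSS_16.3) and 0.72 (without control_10.5). Both groups hold 2 mice with a library high in mt-Te.

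The smallest p among members lower in DSS mice belonged to mt-Nd4l, with 689 ± 59.2 normalized counts in DSS mice and 745 ± 82.1 in controls (log2 -0.11, SE 0.07; limma, adjusted p = 0.719). That sign turned, to 0.01, without the ovaries above 5000 Ovgp1. This setting dropped single ovaries, and DSS_11.1 as a whole. It kept only the right ovary of DSS_10.4 and DSS_11.2, and only the left of control_10.5, control_13.4 and control_16.9. As mt-Nd4l was lower in left ovaries, side and treatment cannot be told apart in that change. mt-Nd4 averaged 114854 ± 8943 and 121567 ± 8160 normalized counts in DSS and control mice (log2 -0.08, SE 0.07; limma, adjusted p = 0.782). mt-Cytb averaged 19182 ± 1192 and 19919 ± 1336 (log2 -0.05, SE 0.06; limma, adjusted p = 0.825). For the most abundant member, mt-Atp6, DSS mice were at 327265 ± 23742 and control mice at 335330 ± 26641 normalized counts, with a 95% interval of the log2 difference of -0.20 to 0.13. mt-Ti averaged 76.0 ± 18.1 in DSS mice and 74.8 ± 9.28 in control mice, with an interval of -0.25 to 0.25. These intervals bound the differences that the data allow, and do not show that the groups were alike.

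Neither the mRNA share of counts nor the tRNA ratio separated the groups: the ratio was 0.226 ± 0.0183 tRNA counts per 1000 mRNA counts in DSS mice and 0.219 ± 0.0272 in control mice. For reference, the rRNA genes left out here were at 31239 ± 9231 (mt-Rnr1) and 178664 ± 38675 (mt-Rnr2) normalized counts in DSS mice, against 18880 ± 5011 and 119553 ± 26144 in control mice, log2 differences of 0.72 and 0.58 that did not pass (limma, adjusted p = 0.261 and 0.308).

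**Figure D5:**
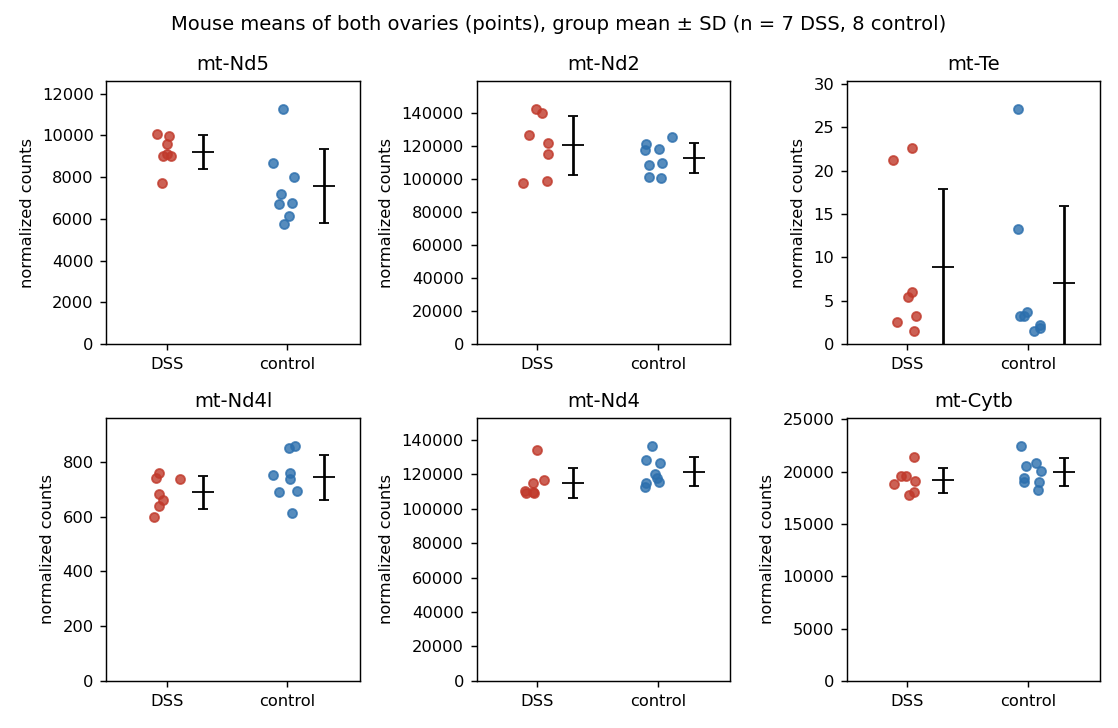
Normalized counts averaged over both ovaries of each mouse, for the 3 members with the smallest p in each direction between 7 DSS and 8 control mice, with group mean and SD beside the points (SD bars of mt-Te that pass below 0 end at the axis). The points of DSS and control mice overlap for all 6 genes, and all 7 DSS mice are above the control median of mt-Nd5 (6965).

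Whether the effect of DSS differed between sides was tested on the left minus right difference of each mouse. With limma 0 of 18 members and 0 of 14646 genes (0%) passed, edgeR called 1 and DESeq2 2 genes, none of them members, and 2 members had an unadjusted p under 0.05, against 1248 genes (8.52%). mt-Co2 had a difference between the DSS effects, left minus right, of 0.20 on the log2 scale (SE 0.08; limma, adjusted p = 0.567), and mt-Te of -2.38 (SE 1.05; limma, adjusted p = 0.568). The value of mt-Te moves with the 4 libraries named above, which are DSS right and control left ovaries. mt-Nd4 (0.13, SE 0.11; adjusted p = 0.781) and mt-Cytb (0.05, SE 0.08; adjusted p = 0.892) were next among positive differences in limma. mt-Nd6 (-0.97, SE 0.78; adjusted p = 0.752) and mt-Tg (-0.42, SE 0.38; adjusted p = 0.786) were next among negative differences, and mt-Nd6 turned to 0.86 without the mice that hold those 4 libraries.

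Nuclear genes that serve mitochondrial gene expression were read from the same fits, as 5 lists with 105 genes in all, of which 100 were tested. For DSS against control 43 were higher and 57 lower in DSS mice and 0 passed. The smallest p of the transcription list was that of Tfam, which packages mitochondrial DNA, with 57.7 ± 6.19 normalized counts in DSS mice and 70.2 ± 7.08 in controls (log2 -0.28, SE 0.08; limma, adjusted p = 0.38), followed by the transcription factor Tfb2m (0.10, adjusted p = 0.686). In the other lists the smallest belonged to Fastkd1 (0.45, adjusted p = 0.507) and Ddx28 (-0.25, 0.565) for RNA processing and decay, Lonp1 (-0.12, 0.668) and Atad3a (-0.16, 0.699) for DNA replication and nucleotides, Cars2 (0.20, 0.565) and Wars2 (0.21, 0.631) for tRNA synthetases, and Cdk5rap1 (0.43, 0.42) and Mtif2 (0.13, 0.681), a translation initiation factor placed in that list, for tRNA modification, each given as log2 difference and limma's adjusted p.

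Between sides, 48 of these 100 genes were higher and 52 lower in left ovaries, and 4 passed in each direction, 8% of those tested against 10.2% of all genes. Higher in left ovaries were Tfb2m, with 282 ± 25.8 normalized counts in left ovaries and 243 ± 25.9 in right ovaries (log2 0.21; limma, adjusted p = 0.00441), Polg, the mitochondrial DNA polymerase (0.29, adjusted p = 0.0198), Kars, a lysyl-tRNA synthetase (0.26, adjusted p = 0.0135), and Nfs1, which supplies sulfur for tRNA modification (0.27, adjusted p = 0.0136). Trnt1, which adds CCA to tRNA ends, was at 86.4 ± 11.5 normalized counts in left ovaries and 112 ± 17.2 in right ovaries (log2 -0.37, SE 0.08; limma, adjusted p = 0.00638). Lrpprc, which stabilizes mitochondrial mRNAs, averaged 647 ± 63.3 normalized counts in left ovaries and 755 ± 59.5 in right ovaries (log2 -0.22, SE 0.04; limma, adjusted p = 0.0019). Hars2, a histidyl-tRNA synthetase (-0.21; limma, adjusted p = 0.0124), and Ptcd2 (-0.19; limma, adjusted p = 0.034) were also lower in left ovaries. Ptcd2 is not a synthetase, though it was placed in that list. By list, 1 of 11 transcription genes, 1 of 22 RNA processing and decay genes, 1 of 16 replication genes, 3 of 25 in the synthetase list and 2 of 27 tRNA modification genes passed.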

How the data were processed

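The submitters' processing notes name TopHat, HTSeq, DESeq2 and the build GRCm38.p5; versions, strand setting and the handling of reads with several matches are not given in the sources used here. The authors deposited a signal per gene, per the file headers normalized counts, which from the values are whole reads divided by a size factor per library. Dividing by the worth of 1 read, between 0.53 and 1.33 normalized counts, gave whole reads for 99.99% to 100% of values, at a tolerance of 0.0051; for 3 libraries that worth was within 1% of 1. Counting error limits genes with few reads, such as the tRNAs.

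limma 3.58.1 (R 4.3.3, trend, two-sided, Benjamini-Hochberg over all genes) was run on log2(value + 1), a scale that understates changes of low genes, for 14646 genes with a mean of at least 5. DSS was compared with control on mouse means, sides with the mouse as a block, since both ovaries come from the same animal, and the DSS effect by side on within-mouse differences. Alternatives used edgeR 4.0.16 and DESeq2 1.42.0 on the recovered reads, other pseudocounts, filters, scalings and subsets of mice. The limma tests were tested on simulated data. Copies were sought with BLAST 2.17.0, at 97% identity over 200 bases or more.

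Members, lists and naming rule were chosen with earlier results of these data known. That rule gives per-library values for the 4 highest and 2 lowest mRNAs, mt-Nd6, the 5 highest tRNAs and every member past the threshold, and test values for those past it and the 3 smallest p per direction; of each nuclear list it gives those past it, otherwise the 2 smallest p. Mcee and the nuclear copies were named after their values were seen.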

Additional observations from a re-analysis of the deposited data

Results flagged for a closer look

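In 40 groups of mouse means searched, 20 measures in DSS and in control mice, 3 held a mouse far from the others by Dixon's criterion, which flags about 1 in 20 groups by chance. mt-Co1 was at 7035 normalized counts in DSS_16.3, and the nearest DSS mouse, DSS_15.1, was at 8086. mt-Nd4 was at 133991 normalized counts in DSS_11.1, with DSS_15.1 nearest at 116657. mt-Te was at 27.1 normalized counts in control_10.5, with control_10.6 nearest at 13.3; these are the control mice whose left libraries are high in mt-Nd6 and mt-Te.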

How the results depend on the processing

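For DSS against control, 0 members were called under every alternative run, while genes called rose above 0 with DESeq2 (52), edgeR (6), left ovaries alone (11), right ovaries alone (1), the number before the dot as a block (3) and without ovaries over 5000 Ovgp1 (10), and were 0 to 13 with each mouse left out in turn. The last number came without DSS_15.1; the labels do not say what the number before the dot means. Signs turned for mt-Nd4l without ovaries over 5000 Ovgp1 (0.013) and for mt-Te in left ovaries alone (-0.75). In this comparison, the settings without ovaries over 5000 Ovgp1 and without libraries over 200 mt-Nd6 dropped single ovaries, which mixed side with treatment. Between sides, 4 members were called with each mouse left out (1184 to 1580 genes). The fit without the replicate block also called 4 members, with 1163 genes against 1488 with the mouse as block. Fewer members and genes were called in control mice alone (1 and 404), DSS mice alone (0 and 114), without ovaries over 5000 Ovgp1 (2 and 738), without mice over 100 Krt5 on the left (0 and 313) and, for genes, without libraries over 200 mt-Nd6 (692, with 3 members), all with fewer mice; mt-Te turned to -0.54 in DSS mice alone. The last 2 settings were chosen after seeing the data. For the DSS effect by side, 0 members were called throughout, with or without the replicate block, and genes called were 2 with DESeq2, 1 with edgeR, 1 without ovaries over 5000 Ovgp1 and 0 to 2 with a mouse left out (1 without control_10.5, control_16.9 or DSS_13.2, 2 without DSS_11.2); mt-Nd6 turned to 0.86 without libraries over 200 mt-Nd6. Of a total without mt-Rnr1 and mt-Rnr2, the mRNA share was 17.02% in DSS and 17.04% in control mice. Without mt-Ti, tRNA counts per 1000 mRNA counts were 0.119 in DSS and 0.114 in control mice, and 0.126 in left and 0.107 in right ovaries; without mt-Atp6 they were 0.418, 0.411, 0.467 and 0.362 in the same order. The cause of these shifts was not tested.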
